A study of Caenorhabditis elegans with 3 samples.

Results

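The genes described here are 6 genes of the somatic gonad of Caenorhabditis elegans: lim-7 (C04F1.3), ceh-18 (ZC64.3), inx-8 (ZK792.2), inx-9 (ZK792.3), fkh-6 (B0286.5) and fos-1 (F29G9.4). The genes were chosen by name, with earlier results of these data known. They are 6 of 45836 gene entries in the deposited table, and all 6 had reads in every one of the 12 libraries. RNA came from gonads dissected from young adult wild-type N2 worms, the progeny of animals fed RNAi bacteria at 24 °C from the first larval stage. The control group was fed HT115 bacteria carrying the empty L4440 plasmid. Another group was fed bacteria for P granule RNAi, and the last group was fed bacteria against csr-1. The labels cite a reference for the P granule targets without naming them; pgl-1, pgl-3, glh-4 and glh-1 were taken as the targets from general knowledge of the method. All 3 groups therefore share the strain, the temperature and the bacterial host. Each group has 4 libraries, named orig, 1, 2 and 3, each pooling 400 to 500 gonads cut at the bend of the arm. What sets the libraries named orig apart was not given, and the labels name no batch. The gonads were not sorted, so germ cells and the somatic cells that came with the cut tissue were sequenced together. How much of the spermatheca, or of tissue beyond it, came with each pool was not measured here.

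Each arm of the hermaphrodite gonad is wrapped by thin, contractile sheath cells and ends in the spermatheca, a tube that stores sperm and into which the sheath pulls the ripe oocyte at ovulation. Sheath cells touch the germ line directly through gap junctions built of innexins, and this contact controls germ cell proliferation and oocyte maturation. P granules are the RNA-protein bodies of germ cells, and CSR-1 is an Argonaute protein that binds small RNAs against germline transcripts.

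The gene lim-7 encodes a LIM homeodomain factor whose promoter is a standard marker of sheath cells. ceh-18 encodes a POU homeodomain factor needed for normal sheath cells and for holding oocytes in arrest. inx-8 and inx-9 encode the innexins on the sheath side of the junctions with germ cells. fkh-6 encodes a forkhead factor for the early gonad that stays on in the spermatheca. fos-1 encodes the worm Fos protein, a bZIP factor required in the anchor cell for its invasion and also in the spermatheca.

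The depth was 18.4 to 31.9 M (megareads) in genes, and the libraries named orig were the deepest of their groups at 29.8, 30.1 and 31.9 M. Of 5 genes taken as RNAi targets, 4 fell where they were targeted and glh-1 did not pass. csr-1 averaged 23550 ± 1583 normalised reads (SD, n = 4) in the controls and 3836 ± 1565 (SD, n = 4) under csr-1 RNAi. pgl-1 averaged 20900 ± 3894 (SD, n = 4) in the controls and 2218 ± 529 (SD, n = 4) under P granule RNAi. The log2 fold changes of pgl-3 and glh-4 there were −2.65 and −2.22, and that of glh-1 was −0.52 (SE 0.16, limma adjusted p = 0.299). Germline markers were abundant, and the summed level of 10 of them was between 105700 and 207500 normalised reads in the 12 libraries. Within each group, all pairs of libraries differed by more than counting error. A normalised read is a read divided by a size factor of its library.

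Levels are compared between genes per kilobase of summed exon length. By this measure inx-8 stood highest, at 900.3 ± 530 normalised reads per kilobase (SD, n = 4) in the controls. inx-9 followed at 195 ± 106 (SD, n = 4), below inx-8 in every library. lim-7 at 25.8 ± 7.28, fos-1 at 21.8 ± 3.19 and fkh-6 at 14.4 ± 9.95 (SD, n = 4) came next, and ceh-18 was lowest at 6.83 ± 1.25 normalised reads per kilobase (SD, n = 4). The last 4 genes did not each differ from their neighbour in this order beyond the spread. The order of the means changed with the feeding only below lim-7. fkh-6 stood above fos-1 under P granule RNAi, at 24.2 ± 14.8 against 17.9 ± 5.75 normalised reads per kilobase (SD, n = 4). With csr-1 RNAi fkh-6 was at 18.5 ± 13.4 per kilobase, and fos-1 at 8.85 ± 2.38 lay next to ceh-18 at 8.34 ± 3.57 (SD, n = 4). Among 11221 tested genes with a length, the control mean of inx-8 per kilobase lay at the percentile 66.4, that of inx-9 at 50, and that of ceh-18 at 8.5. The 6 genes thus covered the range from a mid-level transcript to one with 10 to 27 reads in each library.

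**Figure D1:**
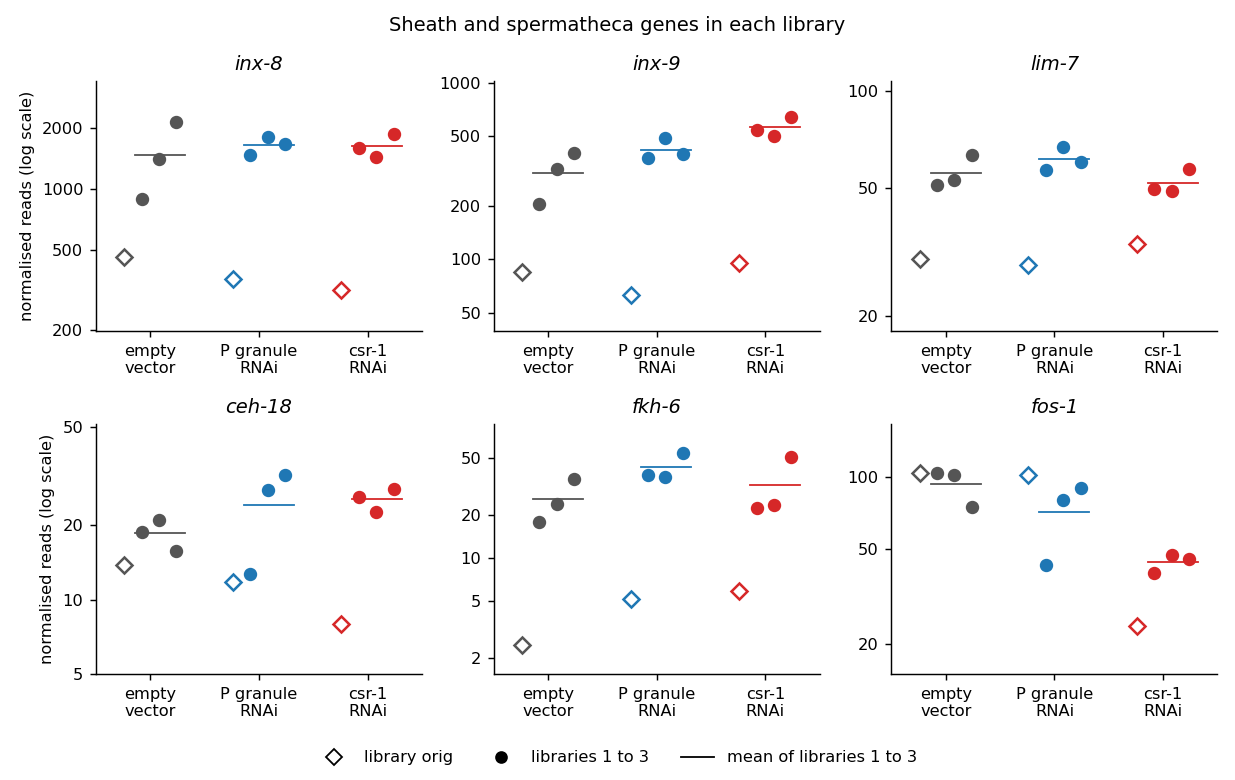
Normalised reads of each gene in each library (log scale), with 3 feeding groups on the horizontal axis, open diamonds for the libraries named orig, filled circles for libraries 1 to 3, and lines for the mean of libraries 1 to 3. In every gene except fos-1 the diamond lies below all 3 circles of its group.

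The clearest pattern among the 6 genes was between libraries of the same group. Both innexins and fkh-6 were lower in each orig library than in each of libraries 1 to 3 fed the same bacteria. The mean of libraries 1 to 3 was at least 3.20 times the orig value for inx-8 and inx-9 in every group. lim-7 was lower by a smaller amount, and fos-1 showed no such difference.

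inx-8 had 461 normalised reads in the control library orig and 888, 1403 and 2131 in control libraries 1 to 3. The P granule group had 357 in orig and 1465, 1809 and 1660 in libraries 1 to 3. The csr-1 group had 316 in orig and 1589, 1433 and 1864 in libraries 1 to 3. All 3 orig libraries lay below all 9 others. The orig values rest on 567, 484 and 435 reads of inx-8, so counting error is small beside the gap. In a fit with a mean for each group and 1 term for orig, the log2 difference of inx-8 was −2.04 (SE 0.23, 95% interval −2.55 to −1.54, limma adjusted p = 0.000987).

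inx-9 had 85.3, 62.7 and 96.0 normalised reads in the orig libraries of the control, P granule and csr-1 groups. Libraries 1 to 3 had 205, 325 and 399 in the controls, 377, 486 and 397 under P granule RNAi, and 543, 501 and 642 under csr-1 RNAi. Again no orig library reached the lowest of the numbered ones. Its log2 difference was −2.35 (SE 0.22, limma adjusted p = 0.000462), which put inx-9 at rank 6 of 11345 genes by p. Within groups, the mean of libraries 1 to 3 was 3.63, 6.69 and 5.86 times the orig value in the control, P granule and csr-1 groups.

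fkh-6, the forkhead gene, had 2.44 normalised reads in the control library orig, from 3 reads (exact Poisson 95% interval 0.619 to 8.77 reads), and 17.8, 24.0 and 35.6 in control libraries 1 to 3. The P granule group had 5.16 in orig and 38.1, 37.2 and 54.2 in libraries 1 to 3. The csr-1 group had 5.82 in orig and 22.4, 23.5 and 50.7 in libraries 1 to 3. The orig libraries, although the deepest, held only 3, 7 and 8 reads of fkh-6, against 17 to 47 in each of the others. The log2 difference was −2.64 (SE 0.34, limma adjusted p = 0.00174). Fold changes of single genes are from limma on value + 1 unless another tool or pseudocount is named. The limma values of genes with few reads are thus understated.

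lim-7, the sheath marker, had 30.1, 28.8 and 33.4 normalised reads in the orig libraries of the control, P granule and csr-1 groups. The numbered libraries had 51.3, 53.0 and 63.3 in the controls, 57.1, 67.1 and 60.3 under P granule RNAi, and 49.8, 49.0 and 57.2 under csr-1 RNAi. The 2 sets did not overlap. For lim-7 the log2 difference was −0.85 (SE 0.20, limma adjusted p = 0.0369). This call was lost in edgeR (adjusted p = 0.0633) and without any single library other than P granule 1 and csr-1 3, at most with an adjusted p of 0.290 without P granule orig.

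ceh-18 and fos-1 did not pass. ceh-18 had 13.8, 11.8 and 8.0 normalised reads in the 3 orig libraries and between 12.7 and 32.0 in the numbered ones, so that orig was the lowest library in each group, although the sets overlap. Its log2 difference was −0.94 (SE 0.34, limma adjusted p = 0.141). fos-1 had 104, 102 and 24.0 normalised reads in the 3 orig libraries and between 39.9 and 104 in the numbered ones, so that its orig libraries were among both the highest and the lowest. Its log2 difference was −0.03 (SE 0.30, limma adjusted p = 0.962), with a 95% interval of −0.69 to 0.62.

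In all, 4 of the 6 genes were called lower and none higher, where 3.95% of all 11345 tested genes were called in either direction (338 lower and 110 higher). The orig library was the lowest in all 3 groups for 5 of the 6 genes, against 9.71% of all tested genes. All 3 orig libraries lay below all 9 others for 4 of the 6, against 4.37% of all tested genes. The median log2 fold change of all tested genes was −0.01. The pattern with orig was already known from earlier results of these data, for the mean of a longer list. These counts are therefore no independent support for it.

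**Figure D2:**
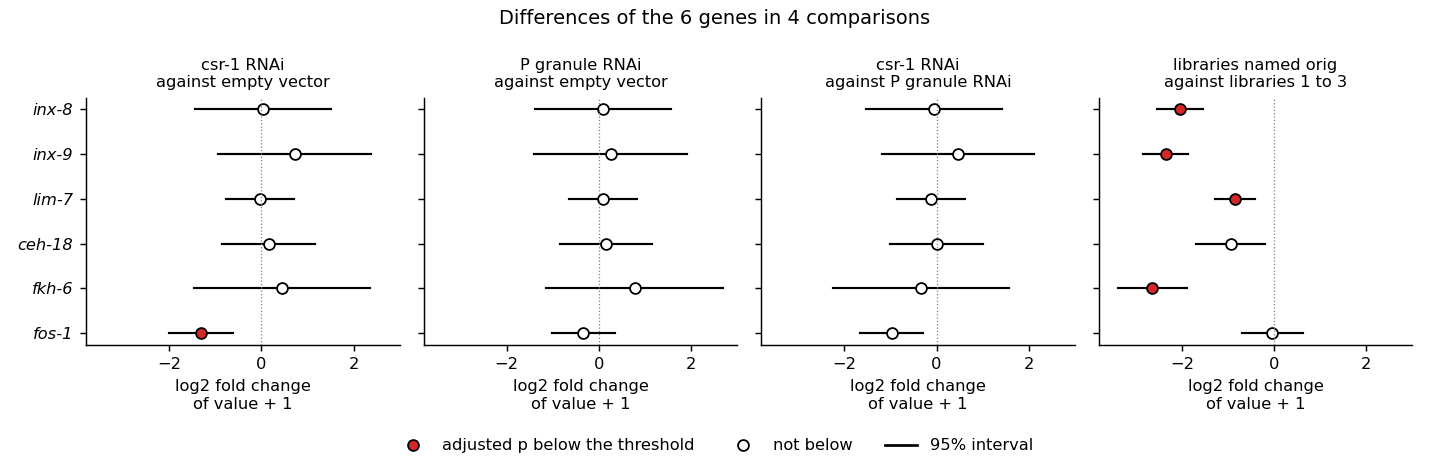
Log2 fold changes of value + 1 (horizontal axis) of the 6 genes (rows) in 4 comparisons (panels), with 95% intervals from limma and filled points for an adjusted p under 0.05. Filled points are 4 genes in the comparison of libraries orig with 1 to 3 and fos-1 under csr-1 RNAi against the controls.

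Genes of the somatic gonad were also examined from lists of known markers, which hold the members too. The sheath list includes lim-7, ceh-18, inx-8 and inx-9, so its counts and median are in part those of the members. The median log2 fold change of the 13 sheath markers with orig was −1.11. Against 2.98% of all tested genes called lower, 6 of the 13 fell in the orig libraries and none rose. Besides lim-7, inx-8 and inx-9 these were acy-4, the sheath adenylyl cyclase that relays the sperm signal (−1.16, SE 0.23), mup-2, a troponin T (−1.90, SE 0.41), and lev-11, tropomyosin (−1.33, SE 0.32). Their limma adjusted p-values were 0.0189, 0.0310 and 0.0478. mup-2 and lev-11, like several others of the list, also work in body wall muscle. With a trend on transcript length removed, 5 of the 13 fell, all but lev-11. ced-1, the engulfment receptor through which the sheath clears dead germ cells, had a log2 fold change of −0.09 (SE 0.21), and tnt-3, another troponin T, had 0.74 (SE 0.42), and neither passed.

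Of 10 spermatheca markers, which include the members fkh-6 and fos-1, only fkh-6 was called, and the median was −0.20. With the length trend removed 3 fell, fkh-6, sth-1 and plc-1, and the median was −0.47. sth-1, a spermatheca gene, stood at −2.45 (SE 0.66, limma adjusted p = 0.0645), whereas nhr-6, a nuclear receptor of spermatheca development, had 0.31 (SE 0.30) and fln-1, filamin, had 0.51 (SE 0.35). Of 16 genes of the gonad basement membrane 4 fell: emb-9 and let-2, the type IV collagen chains (−1.47, SE 0.24, and −1.07, SE 0.26), ost-1, the SPARC protein (−1.44, SE 0.24), and dgn-1, dystroglycan (−1.26, SE 0.24). The median of that list was −0.20, and over all tested genes 2.98% were called lower with orig. Of the 5 innexins at the junctions of soma and germ line only inx-8 and inx-9 passed. Markers of the uterus and anchor cell had the opposite sign: all 4 tested genes lay above 0, with a median of 0.76. None was called in limma and 2 had an unadjusted p under 0.05. These values are without the length trend removed, and over all tested genes with more than 5000 bp of exons the median was 0.51.

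Markers of other tissues moved with the orig libraries too, and their part in these results was not tested. Their values here are without the length trend removed. Over all tested genes 3.95% were called in this comparison. The summed level of 5 pharynx markers was 244.9 to 652.9 normalised reads in the orig libraries and 6.47 to 254.3 in the others, with a median log2 fold change of 3.1 over the 3 tested genes. All 3 had an unadjusted p under 0.05 and none passed in limma after adjustment. The summed level of 6 body wall muscle markers was 1088 to 1514 in orig and 1142 to 3160 in the others, and 0 of 5 tested passed (4 at an unadjusted p under 0.05, 2 in each direction). For 8 intestine markers the sums were 3563 to 44090 and 8972 to 53360, with all 6 tested genes below 0, none called and 1 at an unadjusted p under 0.05. For 10 germline markers they were 118300 to 207500 and 105700 to 196000, with a median of −0.04, none called and 2 at an unadjusted p under 0.05. Of 6 tested markers of the hypodermis and cuticle 1 passed: col-19, an adult cuticle collagen, fell by 1.88 on the log2 scale (SE 0.36, limma adjusted p = 0.0166), while the median of that list was 0.38. The sums of its 8 genes were 508.2 to 1441 in orig and 1161 to 5719 in the others. No marker of these 5 lists was at 0 in every library. In bulk gonad RNA, fewer cells of a type and less RNA per cell cannot be told apart.

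Transcript length also moved with the orig libraries. Over all tested genes the median log2 fold change went from −0.20 in genes with up to 1000 bp of exons to 0.51 in genes with more than 5000 bp. The summed exons are 1356 bp for inx-8, 1301 bp for inx-9, 1388 bp for fkh-6, 1914 bp for lim-7, 2543 bp for ceh-18 and 4411 bp for fos-1. In the 2785 tested genes of more than 1000 and up to 1500 bp, the 10th percentile was −0.67, above the values of inx-8, inx-9 and fkh-6. With the trend on length removed from each library, the same 4 genes passed, with log2 fold changes of −2.04 for inx-8, −2.34 for inx-9, −2.63 for fkh-6 and −0.90 for lim-7.

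**Figure D3:**
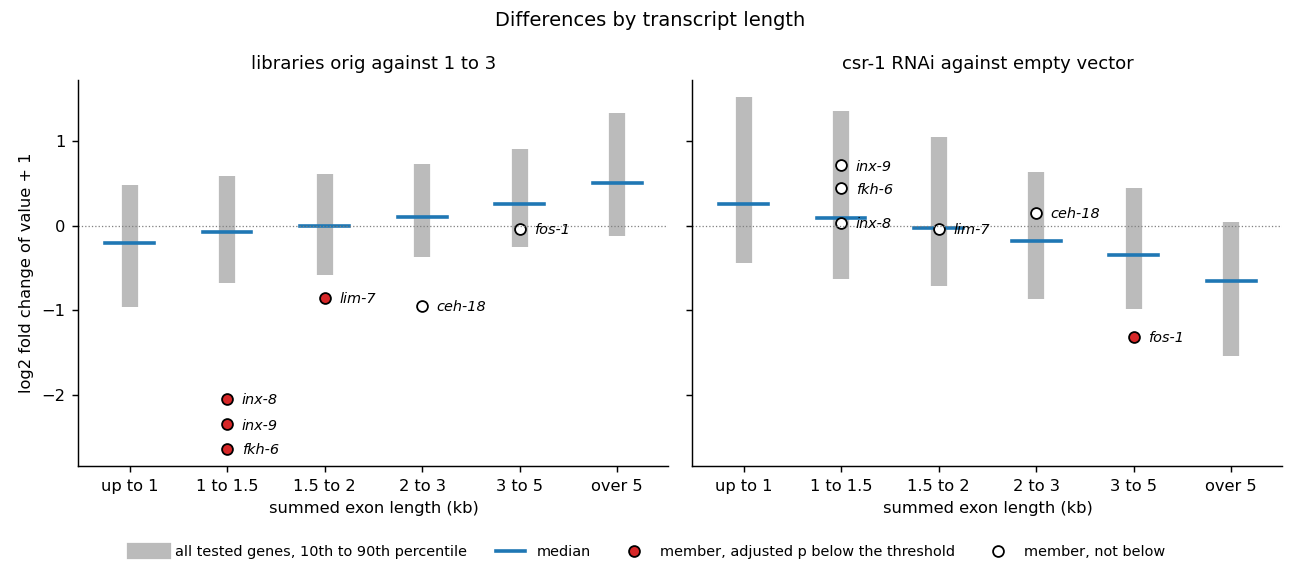
Log2 fold change of value + 1 (vertical axis) by summed exon length (horizontal axis, kilobases): grey bars run from the 10th to the 90th percentile of all tested genes, blue lines are medians, and circles are the 6 genes, filled where the adjusted p is under 0.05. On the left inx-8, inx-9, fkh-6, lim-7 and ceh-18 lie below the bar of their length class, and on the right fos-1 does.

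Between the feeding groups, 1 of the 6 genes was called: fos-1, lower under csr-1 RNAi than in the controls. It had 104, 104, 102 and 75.1 normalised reads in control libraries orig, 1, 2 and 3. The csr-1 group had 24.0, 39.9, 47.1 and 45.3. Every csr-1 library lay below every control library, as it did for 21.6% of all tested genes in one direction or the other. The log2 fold change was −1.31 (SE 0.32, 95% interval −2.0 to −0.62, limma adjusted p = 0.0167). In this comparison 14.8% of all tested genes were called, so 1 call among the 6 is near the share of all genes.

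The call on fos-1 was lost under several alternatives. The limma adjusted p was 0.0501 without control library 1, 0.0548 without control library 2 and 0.0546 without the 3 orig libraries, where the log2 fold change was −1.06. Longer transcripts had lower values under csr-1 RNAi over all genes. The median log2 fold change was −0.34 in genes of more than 3000 and up to 5000 bp, the class of fos-1. This trend was not particular to csr-1 RNAi, because P granule libraries against the same controls gave a median of −0.38 in that class. With the length trend removed, fos-1 had −0.89 for csr-1 RNAi against the controls (limma adjusted p = 0.152) and did not pass. In the authors' deposited table, fos-1 had a mean of 96.2 normalised reads in the controls and 39.1 under csr-1 RNAi, a p of 0.0147 and an adjusted p of 0.168.

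In the P granule group fos-1 had 102, 43.1, 80.6 and 89.9 normalised reads in libraries orig, 1, 2 and 3. Library 1 lay within the csr-1 range and the rest lay above it. Against the controls the log2 fold change was −0.34 (SE 0.32, limma adjusted p = 0.576). Between csr-1 and P granule RNAi it was −0.97 (SE 0.32, limma adjusted p = 0.0781), which passed in DESeq2 (adjusted p = 0.0211) and without P granule library 1 (limma adjusted p = 0.0222). In that comparison the median log2 fold change of all tested genes in the length class of fos-1 was 0.0021.

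The other 5 genes gave no call under csr-1 RNAi against the controls. Their log2 fold changes were −0.04 for lim-7 (95% interval −0.78 to 0.70), 0.16 for ceh-18 (−0.84 to 1.16), 0.03 for inx-8 (−1.43 to 1.50), 0.72 for inx-9 (−0.94 to 2.37) and 0.44 for fkh-6 (−1.47 to 2.36). The intervals of the innexins and fkh-6 span the low orig library of each group. The numbered csr-1 libraries of ceh-18 (26.2, 22.6 and 28.0) all lay above the numbered controls (18.8, 21 and 15.8), with a limma adjusted p of 0.462 without the orig libraries. In libraries 1 to 3 alone, 41.2% of all tested genes had csr-1 and control libraries that do not overlap. Without the orig libraries inx-9 rose under csr-1 RNAi, from 205, 325 and 399 normalised reads in the controls to 543, 501 and 642, with a log2 difference of 0.90 (SE 0.25, limma adjusted p = 0.0407). With all 12 libraries and a term for orig the adjusted p of inx-9 was 0.0574.

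P granule RNAi against the controls called 0 of the 6 genes, where 0.0617% of all tested genes were called. The log2 fold changes were 0.09 for lim-7, 0.16 for ceh-18, 0.09 for inx-8, 0.25 for inx-9, 0.78 for fkh-6 and −0.34 for fos-1. edgeR and DESeq2 on the recovered reads also called 0 of the 6, and 0 had an unadjusted p under 0.05. Without the orig libraries fkh-6 was higher in each P granule library (38.1, 37.2 and 54.2) than in each control library (17.8, 24.0 and 35.6), with a limma adjusted p of 0.306, and 32.7% of all tested genes had such libraries apart in one direction or the other. Between csr-1 and P granule RNAi 0 of the 6 genes were called, against 9.52% of all tested genes. One, fos-1, had an unadjusted p under 0.05, edgeR called 0, and DESeq2 called 1. These comparisons share libraries: the controls serve both RNAi groups, and both RNAi groups enter the last one.

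The ratio of the sheath innexins to each other varied less within a group than either gene did. The gene inx-9 had 0.185, 0.231, 0.232 and 0.187 reads for each read of inx-8 in control libraries orig, 1, 2 and 3. With P granule RNAi the ratio was 0.176, 0.257, 0.268 and 0.239. With csr-1 RNAi it was 0.303, 0.342, 0.35 and 0.344. All 4 csr-1 libraries, orig included, lay above all 8 others.

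The mean ratio was 0.209 ± 0.026 (SD, n = 4) in the controls and 0.335 ± 0.0211 (SD, n = 4) under csr-1 RNAi. On the log2 scale the difference was 0.69, a 1.61-fold higher ratio, with a two-sided exact permutation p of 0.0286, the smallest that 4 against 4 libraries can give. Against P granule RNAi it was 0.53 (exact permutation p = 0.0286). The ratio was singled out after its values were seen, and over the 45 tests of 15 pairs of genes in 3 comparisons the adjusted exact p was 0.321 for both. Without the orig libraries the difference from the controls was 0.68, where 3 against 3 cannot give an exact p under 0.1.

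The 2 innexin genes lie next to each other on chromosome IV on the same strand and encode similar proteins, so reads of one could have been assigned to the other or dropped as not unique. Reads without a unique alignment were 2.04% to 2.21% of the control libraries, 2.18% to 2.38% of the P granule libraries and 2.30% to 2.76% of the csr-1 libraries. Their part in the ratio was not tested.

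**Figure D4:**
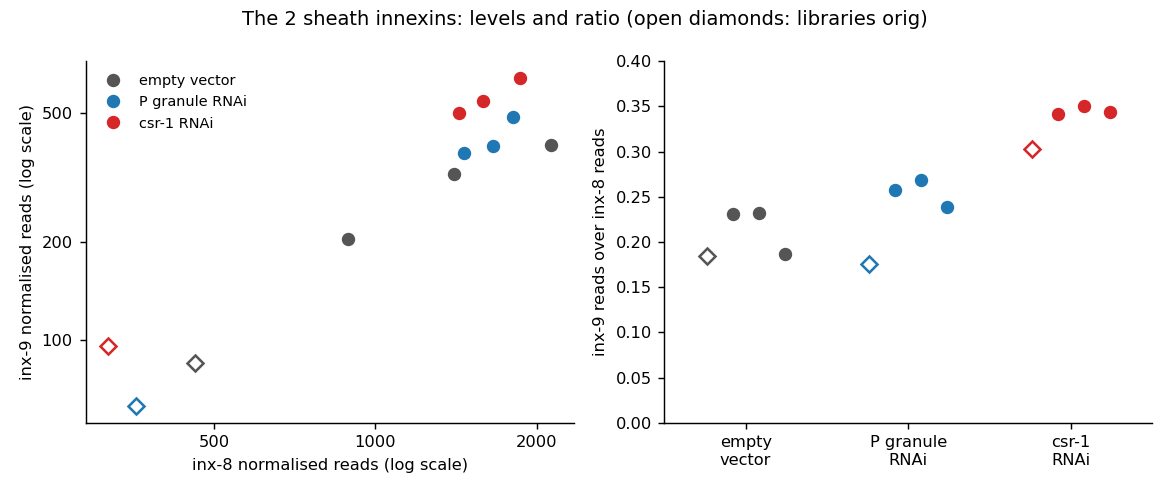
Left: normalised reads of inx-9 (vertical, log scale) against inx-8 (horizontal, log scale) in the 12 libraries, with open diamonds for the libraries named orig. Right: the ratio of inx-9 to inx-8 reads by feeding group (libraries orig, 1, 2 and 3 from left to right), which lies between 0.303 and 0.35 under csr-1 RNAi and at or below 0.268 in the other groups.

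Within groups, lim-7, inx-8, inx-9 and fkh-6 varied together over the 12 libraries. After group means were removed, Pearson's r was 0.99 between inx-8 and inx-9, 0.97 between lim-7 and fkh-6 and 0.96 between lim-7 and inx-9 (n = 12 libraries). ceh-18 was looser, with r between 0.69 and 0.78 to those 4 genes. fos-1 had r of −0.10 to lim-7, 0.05 to inx-8, 0.03 to inx-9 and −0.03 to fkh-6, and 0.59 to ceh-18. These are descriptions over libraries that share depth, scaling and the split between orig and numbered libraries.

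The genes most like each member in that measure were looked up among all tested genes. For both innexins the first was ctsa-1.1, with r of 0.996 to inx-8 and 0.997 to inx-9, and each innexin was among the 5 most like the other. ctsa-1.1 had 954 to 1419 normalised reads in the orig libraries and 3014 to 6761 in the others. C53B7.2 (r = 0.99) was most like lim-7, C47D12.5 (0.98) most like fkh-6 and rfip-1 (0.94) most like ceh-18. The gene most like fos-1 was nhr-25 (0.92), a nuclear receptor of the epidermis and the somatic gonad.

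Under csr-1 RNAi none of the 13 sheath markers was called in limma and 0 had an unadjusted p under 0.05, with a median log2 fold change of 0.03. Of the 10 spermatheca markers 4 fell and none rose, with a median of −0.52, where 14.8% of all tested genes were called and the median of all was 0.02. Beside fos-1 these were lfe-2, an inositol trisphosphate kinase of the spermatheca (−1.14, SE 0.27, limma adjusted p = 0.0145), nhr-6 (−1.11, SE 0.34, 0.0467) and ajm-1, a junction protein (−0.99, SE 0.27, 0.0300). lfe-2 averaged 162 ± 20.4 normalised reads (SD, n = 4) in the controls and 76.2 ± 25.4 (SD, n = 4) under csr-1 RNAi. Without the orig libraries 3 of the 10 spermatheca markers fell, nhr-6, lfe-2 and ajm-1, and 2 of the 13 sheath markers rose, inx-9 and mup-2. These counts were added after the data were seen, and the 14.8% belongs to the fit on all 12 libraries. With the length trend removed limma called 0 of the 10 spermatheca markers and 0 of the 13 sheath markers. The difference between the lists was not tested.

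Markers of other tissues moved under csr-1 RNAi as well, and their part in these results was not tested. Of 6 tested hypodermis and cuticle markers 2 fell, with a list median of −1.48, where 14.8% of all tested genes were called. These were dpy-10, a cuticle collagen (−1.58, SE 0.31, limma adjusted p = 0.00586), and noah-1, a protein of the apical matrix (−3.1, SE 0.66, limma adjusted p = 0.00852). Both stayed called without the orig libraries and with the length trend removed. The sums over 8 genes of that list were 1161 to 2410 normalised reads in the controls and 508.2 to 2427 under csr-1 RNAi. All 7 sperm markers lay above 0, with a median of 1.48, none called in limma and 1 at an unadjusted p under 0.05. Their sums were 235.9 to 1011 in the controls and 224.7 to 6777 under csr-1 RNAi. Without the orig libraries 3 sperm markers rose, msp-19, gsp-3 and ssp-16, a count added after the data were seen. No marker of either list was at 0 in every library.

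Known targets of fos-1 in the anchor cell were represented by 2 tested genes, and their link to fos-1 in these data was not tested. cdh-3, a cadherin that fos-1 turns on there, averaged 278 ± 102 normalised reads (SD, n = 4) in the controls, 134 ± 94.7 under P granule RNAi and 27.1 ± 16.7 under csr-1 RNAi. The csr-1 libraries spanned 8.63 to 42.4 and the controls 162 to 396, with no overlap. Its log2 fold change was −3.48 against the controls (SE 0.54, limma adjusted p = 0.0016) and −2.29 against P granule RNAi (SE 0.54, limma adjusted p = 0.0195). The other tested gene, him-4, a hemicentin of the extracellular matrix, was not called, at −1.17 (SE 0.52, limma adjusted p = 0.158) and −0.87 (SE 0.52, limma adjusted p = 0.365). These values are of young adult gonads, and no anchor cell was examined. Against the controls, 2 of 6 tested hypodermis and cuticle markers also fell under csr-1 RNAi, as given above.

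Of 15 tested genes of somatic gonad fate, 4 fell under csr-1 RNAi and 2 rose, with a median of −0.50. Over all tested genes 14.8% were called in this comparison. hlh-2, the Daughterless bHLH factor of the anchor and distal tip cells, fell by 1.53 on the log2 scale (SE 0.23, limma adjusted p = 0.00131), nhr-25 fell by 1.84 (SE 0.40), gon-2, a TRPM channel, fell by 1.17 (SE 0.35) and nhr-6 is given above. wrm-1, a beta-catenin protein, rose by 0.60 (SE 0.16) and mab-3, a DM-domain factor of male development, rose by 2.91 (SE 0.49). With the length trend removed, 3 fell (hlh-2, nhr-25 and gon-2) and 2 rose. Of 14 genes of sheath contraction 4 fell. These were plc-3, phospholipase C gamma (−0.91, SE 0.26), unc-68, the ryanodine receptor (−2.32, SE 0.58), vab-1 (−0.59, SE 0.17) and lfe-2, already given as a spermatheca marker. With the length trend removed 1 fell, unc-68, and 1 rose, lin-3, the epidermal growth factor. cdh-3 stayed called with the length trend removed.

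**Figure D5:**
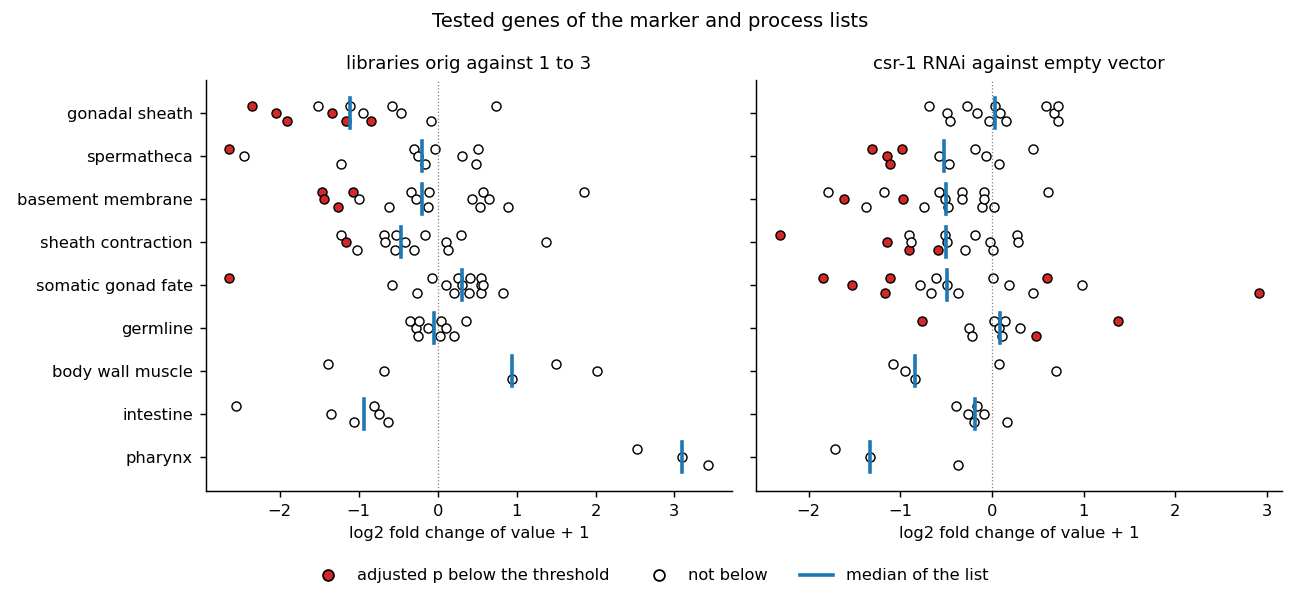
Log2 fold change of value + 1 (horizontal axis) of each tested gene in 9 lists (rows) for libraries orig against 1 to 3 (left) and csr-1 RNAi against the controls (right), with filled points for an adjusted p under 0.05 and blue lines for list medians. The sheath median, members included, lies at −1.11 on the left and 0.03 on the right.

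Genes that overlap the members were read for their own values, because the libraries do not mark strand. fkh-6 lies within the span of B0286.1 on the opposite strand, which had 10.2 to 43.5 normalised reads in the 12 libraries and log2 fold changes of 0.76 (SE 0.33) with orig and 0.18 (SE 0.42) under csr-1 RNAi, neither of them called. The end of fos-1 meets rpt-2, a proteasome subunit on the opposite strand with 9889 to 12260 normalised reads. The log2 fold change of rpt-2 under csr-1 RNAi was −0.11 (SE 0.10, limma adjusted p = 0.522). The end of inx-9 meets ZK792.4, with 4.19 to 13.8 normalised reads, which was not tested. Chromosomes are I for lim-7, X for ceh-18, II for fkh-6 and V for fos-1.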

How the data were processed

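Poly(A) RNA of dissected gonads was sequenced in 12 libraries, 4 in each of 3 groups. Per the submitters' processing notes, the tools include TopHat2 2.0.8b and CASAVA. Also listed, with no role stated, are HTSeq 0.5.4p3, SAMtools 0.1.18 and DESeq 1.1.2.1. The build is not given in the sources used here. GEO lists 3 samples, and the columns of the deposited table name the group and the library. The series calls them biological replicates.

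The deposited table holds a normalised signal, reads divided by a size factor, as its values show: all values are whole multiples of the smallest value of their column within 0.01 reads. The whole-read counts recovered from the deposited values were used for edgeR 4.0.16 and DESeq2 1.42.0 as alternatives. The authors also deposited tables with group means, p-values and adjusted p-values per the file headers.

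The 11345 genes reaching 10 normalised reads in 4 or more libraries were tested with limma 3.58.1 (trend, robust; R 4.3.3) on log2(value + 1), over 12 libraries with a mean for each group. P-values were adjusted by Benjamini-Hochberg over all tested genes, with a threshold of 0.05. The comparison of orig with libraries 1 to 3 added a term for orig. limma was the main test because the values are normalised. The procedure was tested on simulated data. The WBcel235 annotation gave names for 45373 of the 45836 entries, chromosomes, neighbours and summed exon lengths (98.9% of tested genes). Rows naming no gene, 2.84% to 3.69% of reads, stayed out. The smallest chi-square per degree of freedom between libraries of a group was 14.9. Poisson intervals cover counting error only.

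Members and lists were chosen with earlier results of these data known. Named genes were the 6 members, the 5 most like each by residual correlation, called genes of the lists (at most 6 for each list and comparison), genes that overlap or neighbour them, and the RNAi targets. The ratio of the innexins, the length correction (lowess, span 0.3) and the list counts without orig were added after the data were seen. List genes that did not pass are named as examples.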

Additional observations from a re-analysis of the deposited data

Results flagged for a closer look

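Within each group of 4 libraries, the gap between the most extreme library and its neighbour was compared with the range on the log2(value + 1) scale, for 6 genes in 3 groups. Chance gives such a gap in about 1 in 20 groups, and 6 of the 18 had one. Over all tested genes the share was 5.91% in the controls, 7.98% under P granule RNAi and 5.39% under csr-1 RNAi. The 18 are not separate chances: 5 of the 6 gaps are those of the P granule and csr-1 orig libraries, in genes that vary together. The orig library stood apart as the lowest for inx-8 under P granule RNAi (357 normalised reads) and under csr-1 RNAi (316). It did so for inx-9 under P granule RNAi (62.7) and csr-1 RNAi (96.0), and for fkh-6 under P granule RNAi (5.16). For fos-1 the control library 3 was apart, at 75.1 normalised reads below 3 libraries that nearly coincide.

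For fos-1 the orig library held different places in different groups. It was 1.11 times the mean of libraries 1 to 3 in the controls and 1.43 times under P granule RNAi, above all 3 in each, although in the controls it nearly equals libraries 1 and 2, and the ratio reflects the low library 3. Under csr-1 RNAi it was 0.544 times that mean and below all 3. Each ratio has 1 orig library, and the difference was not tested.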

How the results depend on the processing

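With orig against libraries 1 to 3, inx-8, inx-9 and fkh-6 kept their direction and their call under all alternatives that tested them. A filter of 50 normalised reads in 4 libraries did not test fkh-6 or ceh-18 and called 2 members, and lim-7 had an adjusted p of 0.0772. Results near 0 changed sign: lim-7 under csr-1 RNAi was 0.031 scaled to reads in genes and 0.057 with the length trend removed. ceh-18 between the RNAi groups was −0.0012 in DESeq2, −0.0011 with a pseudocount of 0.5 and −0.069 with the length trend removed. fos-1 was 0.12 under P granule RNAi with the length trend removed, and with orig 0.0035 (edgeR, RLE), 0.015 (DESeq2) and 0.033 (scaled to reads in genes).

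Members called under csr-1 RNAi numbered 0 with the length trend removed and 0 to 1 without 1 library, and between the RNAi groups 1 in DESeq2 and 0 to 1 without 1 library. Genes called overall were 931 to 2159 without 1 library under csr-1 RNAi. Under P granule RNAi they were 92 in DESeq2, 4 without orig and 6 to 194 without 1 library. Between the RNAi groups they were 411 without orig, 503 with only the groups compared and 565 to 1984 without 1 library. With orig they were 1052 in DESeq2, 711 with the length trend removed and 100 to 628 without 1 library.

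Leaving out 1 library gave these ranges of log2 fold change. Under csr-1 RNAi they were −0.25 to 0.12 for lim-7, −0.018 to 0.55 for ceh-18, −0.36 to 0.62 for inx-8 and −0.28 to 0.99 for fkh-6. Under P granule RNAi they were −0.13 to 0.36 for lim-7, −0.081 to 0.37 for ceh-18, −0.31 to 0.64 for inx-8 and −0.20 to 0.93 for inx-9. Between the RNAi groups they were −0.39 to 0.028 for lim-7, −0.22 to 0.39 for ceh-18, −0.61 to 0.53 for inx-8, −0.21 to 1.1 for inx-9 and −1.04 to 0.21 for fkh-6. For fos-1 with orig it was −0.34 to 0.37, and for the innexin ratio 0.63 to 0.74, and 0.68 without orig, where the exact p cannot pass. The cause of these changes was not tested. The labels do not say whether libraries of the same name are paired across groups. Same-named libraries had correlations of their deviations from −0.47 to 0.66, which do not settle it. With a replicate block fos-1 had an adjusted p of 0.0253 under csr-1 RNAi and inx-9 0.0569. fkh-6 and ceh-18 are limited by their few reads.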

Other observations

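Other homeodomain factors and innexins also fell in the orig libraries, where 2.98% of all tested genes were called lower. Among 9 tested AP-1, LIM and POU factors related to the members, lim-6, a LIM homeodomain factor, fell by 2.03 on the log2 scale (SE 0.38, limma adjusted p = 0.0135). ceh-14, another LIM homeodomain factor, fell by 2.62 (SE 0.54, limma adjusted p = 0.0219). Among 14 tested innexins outside the junctions of soma and germ line, inx-5 fell by 1.19 (SE 0.27) and inx-12 by 1.16 (SE 0.29). efn-3, an ephrin, fell by 2.73 (SE 0.42), from 31.4 to 153 normalised reads in the numbered libraries to 5.90 to 13.8 in orig.

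One innexin that is no member rose under csr-1 RNAi: inx-11 had a log2 fold change of 1.15 against the controls (SE 0.18, limma adjusted p = 0.00158) and of 1.12 against P granule RNAi (SE 0.18, limma adjusted p = 0.00258).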
